A study of Mus musculus with 3 samples.

Results

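The Hippo pathway and the genes switched on by its output, the coactivators YAP and TAZ, were followed across 3 levels of plate stiffness. The set held 38 genes out of 56833 in the table, taken by gene symbol from a list of names drawn up with earlier results of these data known. It was made of 20 pathway parts and 20 target genes, with Lats2 and Amotl2 counted in both, since each encodes a pathway part and is also a known target. All 38 were found, all had a mean of at least 10 normalized counts over the 3 libraries, and 37 had a mean of at least 50 (Tead4 did not).

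The cells came from the ankle synovium of Efhd1CreER; Ai9 mice and were sorted for tdTomato. In these mice a CreER recombinase tied to Efhd1 can switch on the tdTomato reporter of the Ai9 allele. The sorted cells spent 24 h on CytoSoft plates with a collagen coat, whose stiffness was 0.2 kPa (called soft here), 8 kPa (intermediate) or 64 kPa (stiff), before their RNA was sequenced. Triplets of values run in that order. The genotype, the sort, the collagen coat and the culture time were shared by all levels, and the sources used here do not give the mice's age, their number or whether animals were pooled. With 1 library per level there was no replicate check, no p-value is given, and effects of culture and of stiffness cannot be told apart.

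The libraries held 25487064 to 28081600 reads, and 20398 to 20667 genes had a read in them. Of the genes that label telocytes, the interstitial cells named in the labels, Efhd1 itself was nearly absent from these cultures, with 10.3, 4.71 and 3.08 normalized counts, where a count of 0 allows up to 2.83 to 3.08. Pdgfra, a receptor of interstitial fibroblasts and telocytes, stood at 5118 to 6298, Cd34 at 235 to 318, Foxl1 at 186 to 238 and Kit at 38.7 to 45.1, while Gli1 was scarce, at 8.20 to 11.3, and Vim, shared with fibroblasts, stood at 94005 to 111934. Macrophage markers were present and moved with stiffness: all 12 had reads in every library, their summed level was 30969.8, 38043 and 66333.5 normalized counts, and 12 of 12 were higher in the stiff than in the soft library, with a median log2 ratio of 1.25. Of the 10 fibroblast genes listed, 6 were higher and 4 lower in the stiff than in the soft library, with a median log2 ratio of 0.25. Endothelial markers summed to 57.4 to 88.2, with Cldn5 at 0, and mural markers to 2278 to 3162, with Higd1b at 0. The 10 myofibroblast genes listed, most of them contractile, also had higher values in the stiff than in the soft library, with a median log2 ratio of 1.97, and the counting interval of 1, the intermediate filament gene Des, included 0. In bulk RNA, fewer cells of a type and less RNA per cell cannot be told apart. The part of the macrophage RNA in the values below was not tested.

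YAP (Yap1) and TAZ (Wwtr1) are coactivators that carry no DNA-binding domain of their own and reach their target genes through the TEAD transcription factors. In the Hippo cascade the kinases MST (Stk3 and Stk4, with the scaffold Sav1) activate the kinases LATS (Lats1 and Lats2, with Mob1a and Mob1b), which phosphorylate YAP and TAZ and so keep them out of the nucleus. Both coactivators also respond to the stiffness of the surface a cell sits on and to tension in its actin skeleton, largely by moving between cytoplasm and nucleus, which a transcript level does not show.

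Target genes were mostly higher on the stiff plate, and most of the difference lay between 8 and 64 kPa. Of the 20 targets, 18 had their highest value in the stiff library, an order found in 42.2% of all 11873 genes with a mean of at least 50. The stiff value exceeded the soft one for the same 18 targets, against 51.1% of all genes, and the counting interval excluded 0 for 18 of 20 (not for Gadd45a and Fjx1), against 57.1%. In the comparison of stiff with soft, 10 of the 20 reached a log2 ratio of 0.5 upward, against 11.8% of all genes, and 4 (Ankrd1, Ccn2, F3 and Amotl2) reached 1, against 3.22%. Ankrd1 had 22.6, 12.3 and 145.6 normalized counts and met the minimum mean of 50 only through the stiff library. Its calls, orders and ranks in every comparison are therefore a description and no support. Downward, 1 target (Nt5e) reached 0.5, against 3.77%. The median log2 ratio was 0.55 over the 20 targets and 0.00 over the 14291 genes with a mean of at least 10. With a trend in transcript length and GC content subtracted (a local fit of the ratio across genes), the target median was 0.28, 8 of 20 targets reached 0.5 upward, against 7.69%, and 7 of 20 instead of 11 were above 0 between intermediate and soft, against 49.2%. Between intermediate and soft the target median was 0.06, no target reached 0.5 upward, against 3.94% of all genes, and 2 (Ankrd1 and Fjx1) reached it downward, against 0.657%. The interval of Ankrd1 in that pair, -1.99 to 0.17, included 0. No target reached 1 in that comparison, against 0.16% of all genes upward and 0.00842% downward. There 11 of 20 were above 0, against 53.5%, and the interval excluded 0 for 14 of 20, against 35.3%. Between stiff and intermediate the median was 0.38, 7 of 20 reached 0.5 upward, against 5.42%, and 1 (Nt5e) downward, against 3.42%. Nuak2, at 0.51, was under the threshold with a pseudocount of 10 and with scaling by total reads or the upper quartile. It was also under it with the length and GC trend subtracted, and each of these settings left 6 targets. Ccn2, Ankrd1 and F3 reached 1 in this comparison, against 0.825%, 19 of 20 targets were above 0, against 51.1%, and the interval excluded 0 for 17 of 20, against 48.3%. Downward none reached 1, against 0.421%, as none did between stiff and soft, against 0.387%. Log2 ratios here use a pseudocount of 1, and the bounds given with them are 95% counting intervals, which cover counting error only. Every pair of the 3 comparisons shares a library. Beside these counts, the summed macrophage markers had stiff to soft, intermediate to soft and stiff to intermediate ratios of 1.10, 0.30 and 0.80, and the summed myofibroblast genes of 1.56, 0.22 and 1.338 on the log2 scale.

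**Figure D1:**
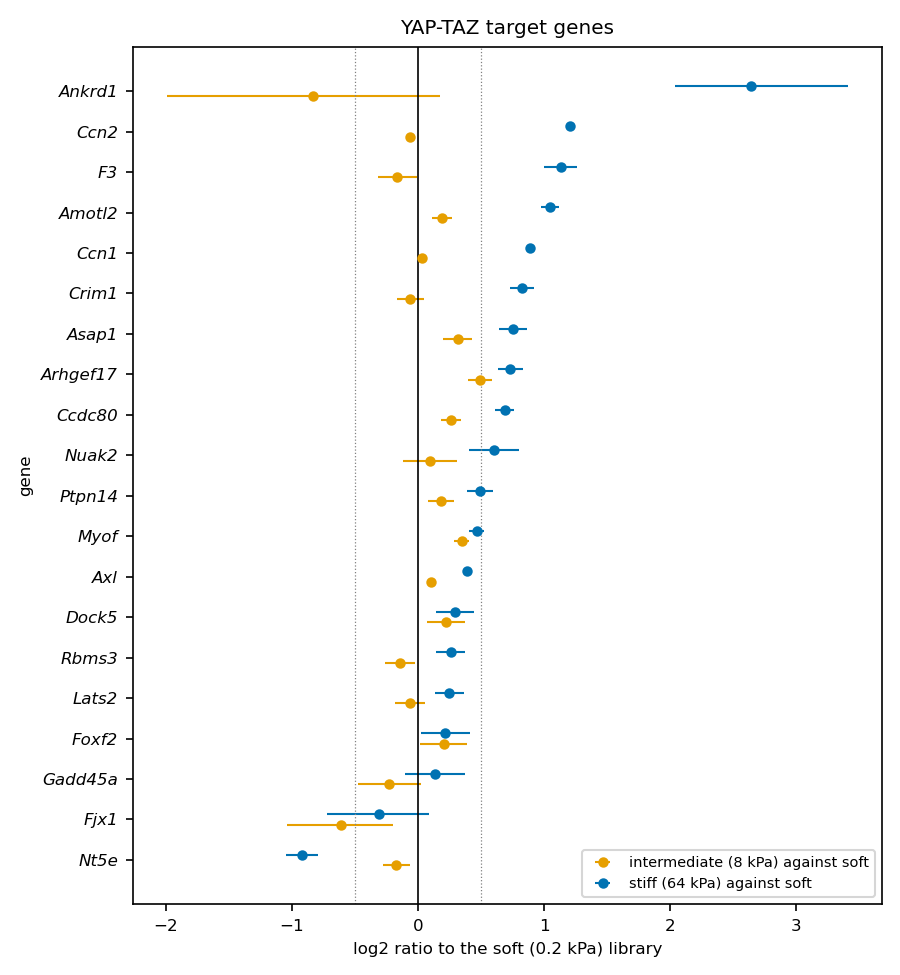
Log2 ratio (horizontal axis) of each of the 20 target genes (vertical axis) to the soft library, for the intermediate library (orange) and the stiff library (blue). Bars are 95% counting intervals from 1 library per level, dotted lines mark ratios of 0.5 in either direction, and 18 blue points lie above 0 while the orange points lie on both sides of it.

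**Figure D2:**
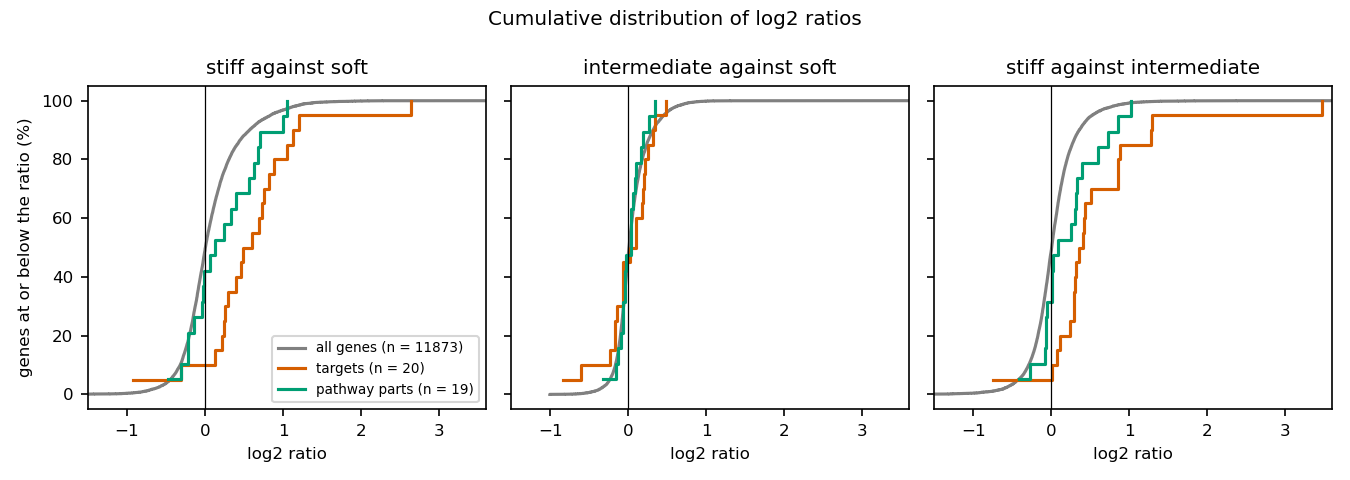
Share of genes (vertical axis, percent) at or below each log2 ratio (horizontal axis) in the 3 comparisons, for all 11873 genes with a mean of at least 50 (grey), 20 targets (orange) and 19 pathway parts (green). Above its lowest gene, Nt5e, the target curve lies to the right of the grey curve in nearly all of its range in the 2 comparisons with the stiff library, and it crosses the grey curve between intermediate and soft.

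The matricellular genes Ccn2 and Ccn1 and the cardiac ankyrin repeat gene Ankrd1 are the targets most often read as a sign of YAP and TAZ activity. Ccn2 (also called CTGF), which encodes a secreted matricellular protein of fibrotic tissue, had 23626, 22575 and 54585 normalized counts. Its soft and intermediate values were close and the stiff value stood 2.31-fold above the soft one, a log2 ratio of 1.21 (counting interval 1.19 to 1.23). Ccn1 (CYR61), its secreted relative, had 12273, 12518 and 22746 normalized counts. It was again similar on the softer 2 plates and higher only on the stiff plate, with a stiff to soft log2 ratio of 0.89 (0.86 to 0.92). Ankrd1, which encodes a stretch-responsive protein of the muscle sarcomere and nucleus, was scarce, with 22, 13 and 142 reads. Its stiff to soft log2 ratio of 2.64 (2.04 to 3.41) was the third highest of the 11873 genes, and its stiff to intermediate ratio of 3.47 the second highest, ranks that rest on its meeting the minimum mean through the stiff value. Between intermediate and soft the Ankrd1 ratio was -0.83, with an interval from -1.99 to 0.17 that includes 0, so a lower value at 8 kPa was not detectable at this depth.

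In GRCm39, Ccn1 lies on chromosome 3 from 145352720 to 145355738 on the minus strand with 5 exons, and Ankrd1 on chromosome 19 from 36089352 to 36097506 on the minus strand with 9 exons. Ccn2, Ccn1 and Ankrd1 each overlap a gene on the opposite strand, over 33.2%, 23.0% and 26.3% of their exon bases, and whether the counting used strand is not given in the sources used here. The partner of Ccn2, Gm15270, stood at 122.6 to 224.6 normalized counts, and that of Ccn1, Gm17501, at 91.4 to 170.2, both far below the target itself. For Gm56671, the partner of Ankrd1, no value was found, so its level could not be set beside that of Ankrd1.

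TEAD proteins bind the 6-base motif GGAATG, which reads CATTCC on the other strand. The 250 bases before the start of the canonical transcript of 37 members were searched on both strands in GRCm39 with GENCODE vM39 starts, and the following stretches show how the motif is placed at 4 members that were higher on the stiff plate, with Ankrd1 shown as a member that was higher and has no match. Capitals mark the motif.
Ccn1 (chr3:145355739-145355988, minus strand): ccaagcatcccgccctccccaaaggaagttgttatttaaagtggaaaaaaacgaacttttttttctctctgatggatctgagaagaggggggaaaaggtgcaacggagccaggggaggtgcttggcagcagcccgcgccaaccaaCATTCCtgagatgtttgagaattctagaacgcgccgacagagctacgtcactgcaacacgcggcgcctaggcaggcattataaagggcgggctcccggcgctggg
Axl (chr7:25488330-25488579, minus strand): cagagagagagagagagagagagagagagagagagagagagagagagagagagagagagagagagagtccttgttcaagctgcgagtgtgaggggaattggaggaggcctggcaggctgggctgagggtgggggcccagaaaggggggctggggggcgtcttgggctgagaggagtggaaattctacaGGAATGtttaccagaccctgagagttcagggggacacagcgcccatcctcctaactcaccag
Amotl2 (chr9:102594653-102594866, plus strand): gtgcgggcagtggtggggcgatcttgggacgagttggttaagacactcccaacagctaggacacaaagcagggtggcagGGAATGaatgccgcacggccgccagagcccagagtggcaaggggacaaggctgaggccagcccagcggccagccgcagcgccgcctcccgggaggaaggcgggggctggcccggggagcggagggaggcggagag
Tead1 (chr7:112278272-112278521, plus strand): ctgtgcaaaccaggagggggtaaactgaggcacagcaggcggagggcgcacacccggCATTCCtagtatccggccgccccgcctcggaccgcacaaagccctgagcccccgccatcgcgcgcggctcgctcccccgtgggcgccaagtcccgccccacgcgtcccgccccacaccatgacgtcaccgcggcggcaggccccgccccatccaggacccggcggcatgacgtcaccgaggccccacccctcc
Ankrd1 (chr19:36097507-36097756, minus strand): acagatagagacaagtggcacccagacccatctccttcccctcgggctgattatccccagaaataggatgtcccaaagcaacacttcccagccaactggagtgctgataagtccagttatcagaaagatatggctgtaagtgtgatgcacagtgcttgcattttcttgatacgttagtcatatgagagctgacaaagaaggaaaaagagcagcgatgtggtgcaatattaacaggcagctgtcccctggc

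Ccn1, Axl and Tead1 held 1 match each, starting 105, 62 and 193 bases before the start, Amotl2 held 2 in its window, and Ankrd1 held none in its window. The canonical start of Amotl2 lies inside the annotated gene, which begins at 102593836 with another transcript. The Amotl2 stretch is 36 bases shorter than the others because its far end lies in an exon of another transcript, and that end holds the other match. In all, 5 of 19 targets searched and 7 of 20 pathway parts had a match, or 11 of the 37 genes, against 12.1% of 21737 protein-coding genes. Wwc2 was the 1 member with 3 matches, all of its 250 bases lie in exons of protein-coding genes, and 3 or more matches were found in 0.069% of all genes. The AP-1 motif TGANTCA was found at 1 member, F3, against 6.18% of all genes, and the window of F3 held no GGAATG. The CArG box, the binding motif of the serum response factor, was found at no member, against 1.40% of all genes. A match is a run of letters and not a measured binding site, and a window without one says nothing of sites elsewhere. Matches were also found at Yap1, Wwtr1 and Mob1a, whose stiff to soft log2 ratios were -0.02, -0.31 and -0.02, and none at F3 and Crim1, with 1.13 and 0.82.

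**Figure D3:**
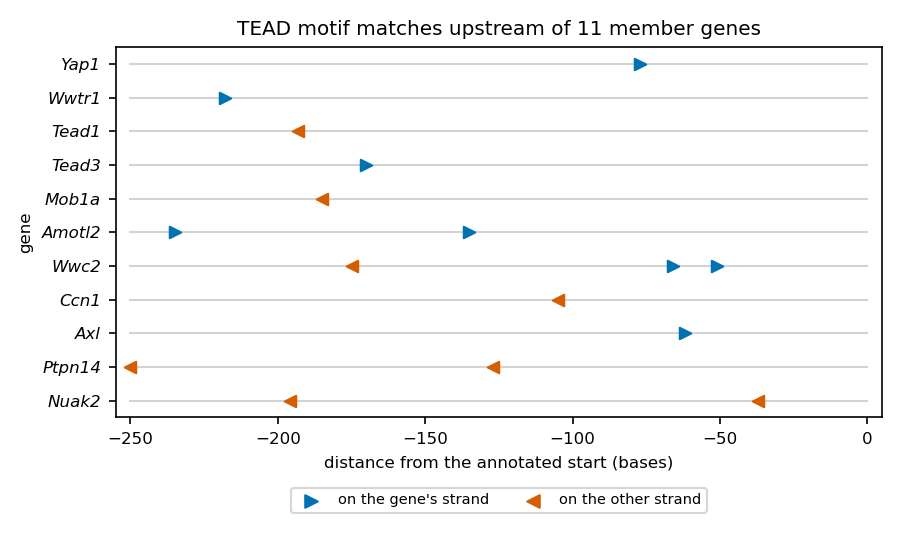
Positions of the GGAATG motif in the 250 bases before the annotated start (horizontal axis, bases) of the 11 member genes (vertical axis) that hold it. Arrowheads pointing right (blue) mark matches on the gene's own strand and those pointing left (orange) on the other strand, and Wwc2 has 3.

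Among the remaining targets, F3, Crim1 and Nuak2 differed mainly between 8 and 64 kPa, as Ccn2 did. Their differences between the softer 2 plates were smaller and went in either direction. F3, which encodes tissue factor, the starter of the clotting cascade, had 700.2, 625 and 1534 normalized counts. The stiff value stood above both others, with a stiff to soft log2 ratio of 1.13 (1 to 1.26). Crim1, a transmembrane protein that binds BMP-type growth factors, had 1378, 1322 and 2441 normalized counts, a ratio of 0.82 (0.73 to 0.92). Nuak2, a kinase related to AMPK that feeds back on LATS, had 348.6, 372.4 and 529.2 normalized counts, a ratio of 0.60 (0.40 to 0.80) that was 0.47 with the length and GC trend subtracted. Amotl2, an angiomotin family member that binds YAP and holds it in the cytoplasm, had 2416, 2753 and 4998 normalized counts. Its log2 ratio to soft was 0.19 (0.11 to 0.27) at 8 kPa, or 0.078 with that trend subtracted, and reached 1.05 (0.98 to 1.12) at 64 kPa.

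Other targets were spread more evenly over both steps. Asap1, a GTPase-activating protein for Arf proteins at focal adhesions, had 1086, 1352 and 1834 normalized counts. Ccdc80, a secreted matrix protein, had 2536, 3040.2 and 4085. These 2 of the 20 targets were higher by at least 0.25 on the log2 scale in each step, against 5.73% of all genes. With the length and GC trend subtracted no target was, against 2.97%, the first step then being 0.23 for Asap1 and 0.18 for Ccdc80. Arhgef17, a guanine nucleotide exchange factor, had 1437, 2021 and 2388 normalized counts, and 67.1% of its log2 difference between stiff and soft lay between soft and intermediate, though its stiff to soft ratio of 0.73 was -0.11 with the trend subtracted. For Ccn1, in contrast, that share was 3.21%, and for Amotl2 it was 17.9%. Myof, a membrane repair protein of the ferlin family, also had the larger step first, with 3760.4, 4781 and 5189 normalized counts and a stiff to soft log2 ratio of 0.46. That ratio was 0.25 with the trend subtracted.

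Smaller upward differences, under 0.5, were also found for Axl, Ptpn14, Dock5, Rbms3, Lats2, Foxf2 and Gadd45a, whose stiff to soft log2 ratios ran from 0.13 for Gadd45a to 0.49 for Ptpn14. Ptpn14, a tyrosine phosphatase that binds YAP, had 1391, 1581 and 1954 normalized counts, but its first step was -0.23 and its stiff to soft ratio -0.17 with the trend subtracted. Dock5, an exchange factor for Rac, had 661, 770.2 and 809, with most of its ratio of 0.29 between soft and intermediate, a ratio of -0.09 with the trend subtracted. Foxf2, a forkhead transcription factor of mesenchyme, had 427.5, 492.1 and 497.4 and a ratio of 0.22 (0.03 to 0.41), which was 0.10 with the trend subtracted. Rbms3, an RNA-binding protein, had 1219.97, 1104 and 1459, lowest at 8 kPa. Axl, a receptor tyrosine kinase for Gas6, was the third most abundant member per kilobase of transcript and had 18991, 20388 and 24922 normalized counts. Its stiff to soft ratio of 0.39 (0.36 to 0.42) was 0.18 with the length and GC trend subtracted. Gadd45a, a growth arrest and DNA damage gene, had an interval that included 0, from -0.11 to 0.37.

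The 2 targets that were lower in the stiff than in the soft library were Nt5e and Fjx1. Nt5e encodes CD73, the surface enzyme that turns AMP into adenosine and a common marker of mesenchymal stromal cells, and lies on chromosome 9 from 88209089 to 88254146 on the plus strand. It had 1484, 1318 and 784.5 normalized counts. Its values stepped down in the order of stiffness, with a stiff to soft log2 ratio of -0.92 (-1.05 to -0.79). Fjx1, a relative of the Drosophila gene four-jointed, had 119.9, 78.2 and 96.4 normalized counts. Its lowest value was the intermediate one, with a ratio to soft of -0.61 (-1.04 to -0.20), while the stiff to soft ratio of -0.31 had an interval that included 0 (-0.72 to 0.09).

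Over all targets, 11 of 20 had the order soft, intermediate, stiff from low to high, against 30.2% of all genes, and 1 (Nt5e) the opposite order, against 25.6%. With the length and GC trend subtracted, 6 of 20 were above 0 in both steps, against 25.4% of all genes. For 8 of 20 (Lats2, Ccn2, Ankrd1, F3, Crim1, Fjx1, Gadd45a and Rbms3) the intermediate library was the lowest of the 3, against 20.9% of all genes. Several of these dips were small: the intermediate to soft interval excluded 0 for Ccn2 (-0.09 to -0.04), F3 (-0.32 to -0.01), Rbms3 (-0.26 to -0.03) and Fjx1, and included it for Lats2, Ankrd1, Crim1 and Gadd45a.

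The ratios depended in part on transcript length and base composition. Across 13923 genes the stiff to soft log2 ratio had a Spearman correlation of 0.25 with transcript length and 0.21 with GC content, given as a description since all genes share the same libraries. Targets had a median length of 4.49 kb and pathway parts of 4.99 kb, against 3.28 kb for all genes. With a local trend in length and GC content subtracted, 15 of 20 targets were above 0 for stiff against soft, against 49.5% of 11655 genes treated the same way. The long transcripts of Arhgef17, Ptpn14 and Dock5 had ratios above 0 as deposited and below 0 with the trend subtracted. Of the shorter transcripts, Ccn2 stood at 1.23, Ccn1 at 0.93, F3 at 1.24 and Ankrd1 at 2.72 with the trend subtracted. For stiff against intermediate the target median was 0.40 with the trend subtracted, close to the 0.38 without it, and between intermediate and soft it was -0.079.

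**Figure D4:**
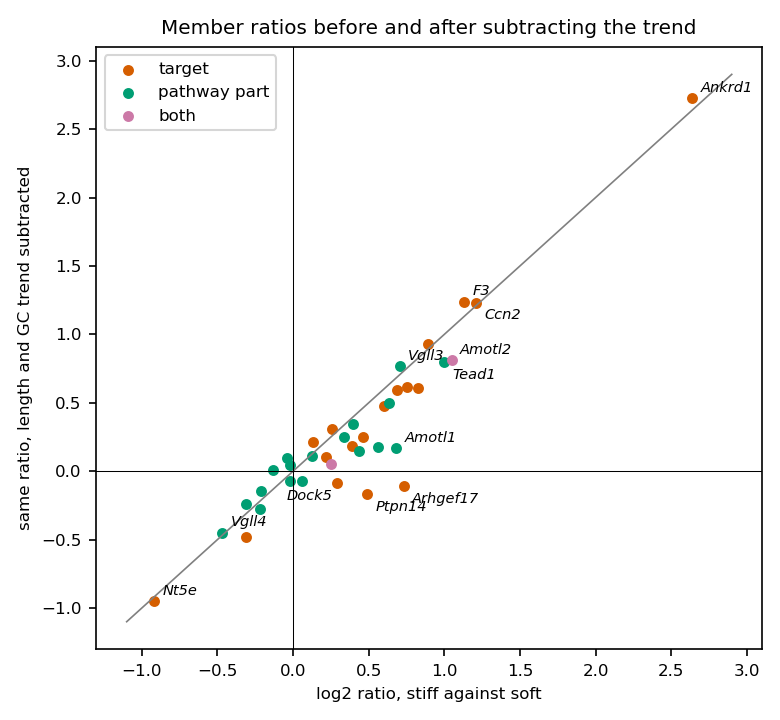
Stiff to soft log2 ratio of the 38 genes as deposited (horizontal axis) and with the length and GC trend subtracted (vertical axis), with targets in orange, pathway parts in green and the 2 genes that are both in purple. Points on the grey line are unchanged by the subtraction, and Arhgef17, Ptpn14 and Dock5 are the labelled genes that end below 0 from above it.

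The pathway parts moved less than the targets and in both directions. Of the 19 with a mean of at least 50, 6 reached a stiff to soft log2 ratio of 0.5 upward (Tead1, Amot, Amotl1, Amotl2, Vgll3 and Wwc2), against 11.8% of all genes, and none reached it downward, against 3.77% (1, Vgll4, did so with scaling by total reads or the upper quartile). With the length and GC trend subtracted 3 of the 19 (Tead1, Amotl2 and Vgll3) reached 0.5 upward, against 7.69%. Amotl2 was the 1 part that reached 1, against 3.22%. The stiff library was the highest for 11 of the 19, against 42.2%, and the interval excluded 0 for 15, against 57.1%. The order from soft to stiff was upward at both steps for 9 of the 19, against 30.2%, and downward for 5 (Wwtr1, Tead2, Sav1, Mob1b and Vgll4), against 25.6%. With the trend subtracted 6 of the 19 were above 0 in both steps, against 25.4%. Mob1b then stood at -0.04 in the first step and 0.04 in the second, so its downward order was lost. The median over all 20 parts was 0.19, or 0.10 with the length and GC trend subtracted. It was 0.09 without Lats2 and Amotl2, which are also targets. Between intermediate and soft the median was 0.00 and no part with a mean of at least 50 reached 0.5 in either direction, against 3.94% and 0.657%. Between stiff and intermediate the median was 0.17, with 13 of the 19 parts above 0, against 51.1% of all genes. With the libraries scaled by total reads or by the upper quartile, 10 of the 19 were, against 44% and 46.8%. In that step 4 of 19 (Tead1, Amot, Amotl2 and Vgll3) reached 0.5 upward, against 5.42%.

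Transcripts of the coactivators themselves were not higher on the stiff plate. Yap1 had 5438, 5289.5 and 5353 normalized counts. The 3 values lay close together, and the stiff to soft log2 ratio of -0.02 had a counting interval from -0.08 to 0.03. Wwtr1 had 9241, 8978 and 7450.3 normalized counts. It was lowest in the stiff library, with a ratio of -0.31 (-0.36 to -0.27). Per kilobase of transcript, Wwtr1 made up 60.2% of the summed level of the pair in the soft library and 55.4% in the stiff library.

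The DNA-binding partners changed in their relative amounts. Tead1, on chromosome 7 from 112278522 to 112506014 on the plus strand with 14 exons, had 1844, 2220.1 and 3683 normalized counts. It was higher at each step, with a stiff to soft log2 ratio of 0.997 (0.92 to 1.08), just under the threshold of 1. Tead2, the most abundant family member per kilobase, had 2044, 1841 and 1756 normalized counts, a ratio of -0.22 (-0.31 to -0.13). Tead3 had 511.6, 543.9 and 647.1 normalized counts, with a ratio of 0.34 (0.17 to 0.51), and Tead4 only 36, 24 and 49 reads, too few for a difference between stiff and soft to be detectable (0.44, -0.20 to 1.11). Of the summed level of the 4 genes per kilobase, Tead1 took 13.8%, 17.3% and 25.6%, while Tead2 took 71.2%, 66.4% and 56.7%. Tead2 shares 10.4% of its exon bases with Cd37, a leukocyte gene on the opposite strand that stood at 146.6, 184.8 and 315.9 normalized counts. The 9969-base transcript of Tead1 is long, and with the length and GC trend subtracted its stiff to soft ratio was 0.80. Its intermediate to soft ratio was then 0.11 instead of 0.27.

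Apart from Stk4, the core kinases and their adaptors differed little. The stiff to soft log2 ratios were -0.04 for Stk3 and 0.40 for Stk4, the MST kinases, and 0.12 for Lats1 and 0.25 for Lats2. Stk4 had 902.2, 966.3 and 1190 normalized counts, so the stiff library was the highest, and its share of the MST pair per kilobase was 30.8% in the soft and 37.6% in the stiff library. Lats2 had 1163, 1111 and 1382 normalized counts, a small step at 64 kPa only, with an interval from 0.13 to 0.37, and its stiff to soft ratio was 0.05 with the trend subtracted. Gm49361, an annotated gene on the same strand, covers 53.9% of the exon bases of Lats2 and is listed at 0 in every library, and how reads of the shared stretch were assigned is not given in the sources used here. Sav1, the MST scaffold, had 4201, 3840 and 3625 normalized counts, lower at each step, with a ratio of -0.21 (-0.28 to -0.15). It shares 60.2% of its exon bases with Atl1 on the opposite strand, which stood at 115.9 to 119.9. Mob1a and Mob1b, the LATS cofactors, had ratios of -0.02 (8856, 8695.5 and 8741 normalized counts) and -0.13 (3009.95, 2835 and 2741), and Nf2, which encodes merlin, the membrane-bound activator of LATS, had 0.06 (-0.04 to 0.16).

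The angiomotins, which bind YAP and TAZ at junctions and on actin filaments, were all higher on the stiff plate. Amot had 423.4, 434.6 and 657.3 normalized counts, with nearly all of its difference in the second step and a stiff to soft log2 ratio of 0.63 (0.45 to 0.82). Amotl1 had 696.1, 885.2 and 1118 normalized counts, about evenly over both steps, and a ratio of 0.68 (0.54 to 0.82). After subtraction of the trend the ratios were 0.498 for Amot, just under the threshold, 0.17 for Amotl1 and 0.81 for Amotl2. Amotl2 made up 80.1% of the family's level per kilobase in the soft and 84.1% in the stiff library. Wwc2, a scaffold related to KIBRA that activates LATS, had 1204, 1349 and 1777 normalized counts, a ratio of 0.56 (0.45 to 0.67) that was 0.18 with the trend subtracted. Cldn22 on the opposite strand covers 11.4% of its exon bases and is listed at 0 in every library.

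The vestigial-like cofactors, which bind TEAD at a surface that YAP and TAZ also use, went in opposite directions. Vgll3, on chromosome 16 from 65611923 to 65663369 on the plus strand, had 5005, 4002 and 8169 normalized counts. Its intermediate value was the lowest, with a ratio to soft of -0.32 (-0.38 to -0.26), and its stiff value the highest, with a ratio to soft of 0.71 (0.66 to 0.76). Vgll4, a repressor of TEAD activity, had 1589, 1525 and 1149 normalized counts. It was lower mainly in the second step, with a stiff to soft ratio of -0.47 (-0.58 to -0.36). Per kilobase, Vgll3 went from 46.7% of the pair in the soft to 66.4% in the stiff library. The transcripts of this pair carried little of the length and GC trend, and their ratios with it subtracted were 0.77 and -0.45.

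**Figure D5:**
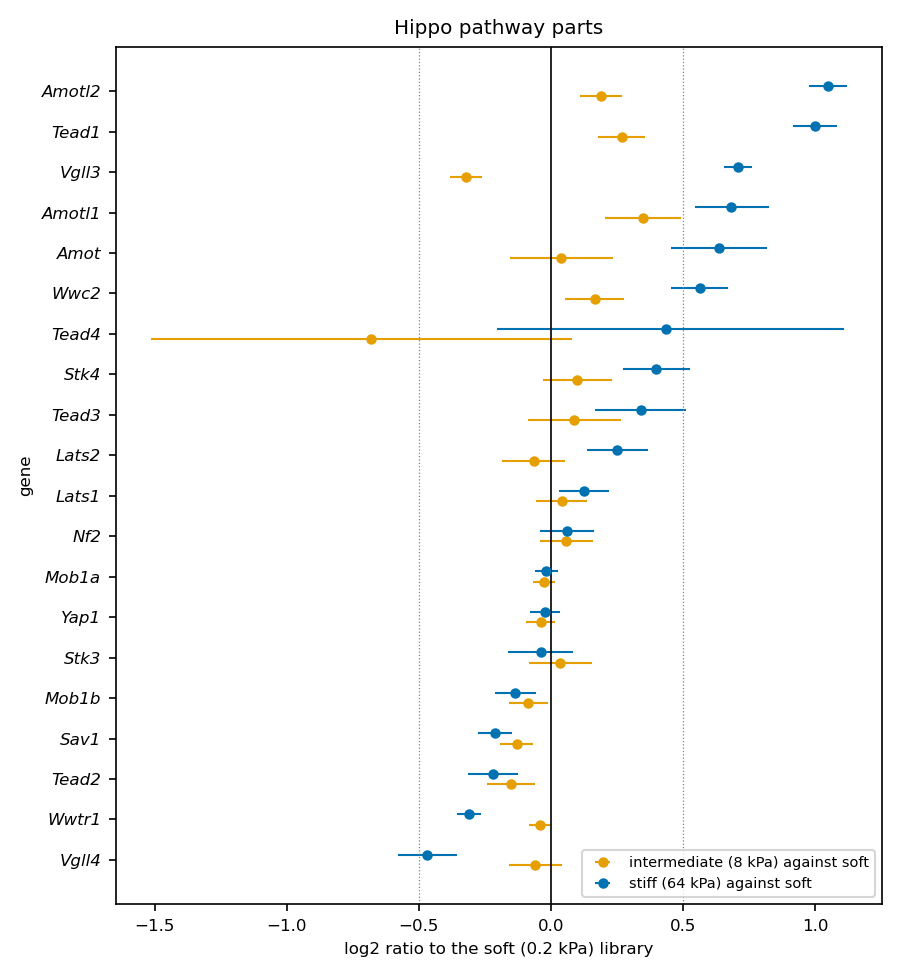
Log2 ratio (horizontal axis) of each of the 20 pathway parts (vertical axis) to the soft library, for the intermediate library (orange) and the stiff library (blue), with 95% counting intervals from 1 library per level and dotted lines at ratios of 0.5 in either direction. Angiomotins, Tead1, Vgll3 and Wwc2 lie to the right in the stiff library, Vgll4 and Wwtr1 furthest to the left, and Yap1 near 0.

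Levels differed widely between members. Per kilobase of transcript and as the mean of the 3 libraries, Ccn2 (12311), Ccn1 (7798) and Axl (4614) were the most abundant, followed by Mob1a (1986), Wwtr1 (1821) and Yap1 (1280.2). Fjx1 (31.3), Ankrd1 (29.7) and Tead4 (6.17) were the scarcest. The summed level of the 20 targets was 75329.6, 78460.3 and 132695 normalized counts, a figure made largely by Ccn2, Ccn1 and Axl.

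Further genes of the pathway were taken from a list of 55 other Hippo regulators, 54 of them found in the table, of which 43 had a mean of at least 50. Between stiff and soft, 11 of these 43 reached a log2 ratio of 0.5 upward, against 11.8% of all genes, and none downward, against 3.77%. The counts and ratios of this list are given without the length and GC trend subtracted. The highest with a mean of at least 50 were Rassf6, a RASSF adaptor of the MST kinases, at 1.89 (1.31 to 2.60), Fat1, an atypical cadherin upstream of Hippo, at 1.16 (1.08 to 1.23), and Arid1a, a chromatin remodelling subunit that binds YAP and TAZ, at 1.15 (0.98 to 1.32). Rassf6 stood at 27.7, 21.7 and 105.6 normalized counts and met the minimum mean of 50 only through the stiff library. Fat1 had 2114, 3165 and 4714 normalized counts, higher at each step. The transcripts of Fat1 and Arid1a are long, at 14996 and 8891 bases. The lowest were Wtip and Limd1, LIM proteins that restrain LATS, at -0.49 and -0.20, and Map4k3, a kinase upstream of LATS, at -0.42.

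A second list held 42 other genes often described as YAP and TAZ targets, of which 37 had a mean of at least 50. Between stiff and soft 13 of 37 reached 0.5 upward, against 11.8% of all genes, and none downward, against 3.77%, and the median over the 40 genes with a mean of at least 10 was 0.24, lower than the 0.55 of the 20 targets. Gli2, among the 13, had 37.9, 60.3 and 73.8 normalized counts. Its soft value was under 50, so its call is a description. The highest with a mean of at least 50 were Ddah1, an enzyme that degrades an inhibitor of nitric oxide synthesis, at 1.25, Itgb2, the leukocyte integrin subunit, at 1.10 (1.01 to 1.19), and Tns1, a focal adhesion protein, at 0.98 (0.88 to 1.09). The values of this list, too, are given without the length and GC trend subtracted, and the transcript of Tns1 has 10255 bases. Itgb2 had 1557, 1997 and 3337 normalized counts, and the summed macrophage markers had a stiff to soft log2 ratio of 1.10 as well. The lowest were the growth factor gene Fgf2 at -0.42, the IGF-binding protein gene Igfbp3 at -0.41 and the mitotic gene Birc5 at -0.40.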

How the data were processed

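RNA of 3 cultures was sequenced from stranded mRNA libraries, per the labels' protocols. STAR 2.7.9a, featureCounts, Subread 2.0.1, DESeq2 1.34.0 and GRCm39 are named in the submitters' processing notes. The annotation and the strand setting of the counting are not given in the sources used here. The signal deposited by the authors is normalized counts: reads per gene over a size factor for each library, made with DESeq2 per the names of the tables. All 3 tables hold the same values, and their columns bear the sample titles. Every value (100%) was a whole multiple of its column's smallest positive value (relative tolerance 1e-04), which gave back the reads. One read is worth 1.03, 0.943 and 1.03 normalized counts at rising stiffness.

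Log2 ratios used a pseudocount of 1. Intervals (95%, Clopper-Pearson) are for how the reads of a gene split between 2 libraries and, as reads can be PCR copies, cover counting error only. A count of 0 allows up to 3 reads. With 1 library per level no count-based test was run. Members were counted against all genes with a mean of at least 50, and medians used a minimum mean of 10. Every member is named, and from the lists of other regulators and targets the 3 highest and 3 lowest stiff to soft ratios among genes averaging 50 or more. The members and lists were chosen with earlier results of these data known. Lengths, positions and upstream sequence are those of GENCODE vM39 canonical transcripts, matched by symbol. The upstream stretch of 1 member is not reported here. The length and GC trend came from local regression on the 300 closest genes. Scripts were tested on simulated data. Versions were Python 3.11.15, scipy 1.17.1, pandas 2.3.3, numpy 2.4.6, R 4.3.3, BLAST 2.17.0 and, for trimmed-mean scaling factors, edgeR 4.0.16.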

Additional observations from a re-analysis of the deposited data

How the results depend on the processing

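With 1 library per level no replicate could be left out. No paired analysis was possible because each level has 1 library. Alternatives were pseudocounts of 0.1 and 10, other minimum means, scaling by total reads, by the upper quartile and by trimmed means, subtraction of the length and GC trend, and, added after the data were seen, leaving out Lats2 and Amotl2. The target medians lay outside the range between the members' median interval bounds under the trend subtraction only, at 0.28 for stiff against soft and -0.079 for intermediate against soft. The medians of pathway parts stayed within that range under every one of these alternatives. Of 114 member ratios, 65 stayed inside their counting interval under every alternative, 43 left it with the trend subtracted, 9 with scaling by total reads and 10 by the upper quartile. The stiff to soft ratio of Arhgef17 was the one member ratio past 0.5 that changed sign, to -0.11 with the trend subtracted, and the cause was not tested. The numbers of all genes past a log2 ratio of 0.5 were 1850 for stiff against soft, 546 for intermediate against soft and 1050 for stiff against intermediate. With a mean of at least 10 they were 2907, 1366 and 2007, and without a filter 9063, 7520 and 8136, since low genes enter. With the trend subtracted they were 1361, 324 and 924, over 11655 genes. Depth limits what can be said of Ankrd1, Tead4 and Fjx1.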
